A study of Homo sapiens with 12 samples.

Results

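The genes described here are the ion channel genes that a symbol pattern found in the array's gene annotation, 25 of 14884 named genes, in SK-N-BE(2) neuroblastoma cells. The pattern asked for potassium, sodium and calcium channel symbols (KCN, SCN, CACN), HCN, CLCN, TRP, P2RX, ASIC, CNG, ANO, PIEZO and LRRC8. Each symbol was read from 1 transcript cluster, the probes that the array assigns to 1 transcribed locus, and where a symbol had several, the brightest on average over all 12 arrays was taken. The matches were 3 HCN genes (HCN2, HCN3, HCN4), 6 CNG genes (CNGA1, CNGA2, CNGA3, CNGA4, CNGB1, CNGB3), 7 ANO genes (ANO3, ANO4, ANO5, ANO6, ANO8, ANO9, ANO10), PIEZO1 and PIEZO2, ASIC1, ASIC2 and ASIC4, and 4 auxiliary potassium channel genes (KCNE5, KCNIP1, KCNIP2, KCNIP4). The only pore-forming subunits gated mainly by voltage were therefore the 3 HCN genes, so "voltage-gated and other ion channels" describes the set only in part. Pore-forming KCN genes and SCN, CACN, CLCN, TRP, P2RX and LRRC8 genes were not analysed here.

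SK-N-BE(2) is a human neuroblastoma line with amplified MYCN, grown here as 1 line in culture, so all samples share its genetic background. Cells received vehicle, 1 µM JQ1, 10 nM panobinostat, or JQ1 and panobinostat together at those doses (the combination), each for 6 h, and every group had 3 arrays. JQ1 displaces BET bromodomain proteins from acetylated chromatin, and panobinostat inhibits histone deacetylases. Neither the solvent of the vehicle nor separate cultures behind the arrays of a group are stated, so the spread between arrays may be technical. Array medians were 6.119 to 6.292, and any pair of arrays correlated over all genes at 0.991 to 0.995 inside a group and at 0.962 to 0.989 across groups. Of 13 adrenergic neuroblastoma markers 11 were measured, at the 73.2 to 99.9 percentile of mean signal. The 2 measured leukocyte markers lay at 11.6 and 30.1, the 2 endothelial markers at 14.7 and 27.1, the 2 epithelial markers at 41.2 and 43.8, and of the fibroblast markers DCN lay at 25.1 and LUM at 98.9; the 2 Schwann cell markers were not analysed here.

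Ion channels are membrane proteins that open a path for ions when voltage, a ligand, force, protons or calcium acts on them. HCN channels open when the membrane hyperpolarises and carry pacemaker current, while CNG channels are opened by cyclic nucleotides in photoreceptors and olfactory neurons. Anoctamins (ANO) include calcium-activated chloride channels and scramblases that move phospholipids across membranes, PIEZO proteins open on mechanical force, and ASIC channels on extracellular protons. KCNE and KCNIP proteins form no pore and set the gating and trafficking of voltage-gated potassium channels. Neuroblastoma arises from the sympathoadrenal lineage of the neural crest, whose mature cells are electrically excitable.

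Values are log2 signals, called so because they ran from 1.391 to 14.1 although the labels do not give the log base, and fold changes rest on that reading. Each change is a log2 difference ± SE from limma (n = 3 arrays per group, all 12 arrays in 1 fit), and a gene was called higher or lower at an adjusted p under 0.05 (Benjamini-Hochberg over 14884 genes). Where a gene's arrays in 1 group all lie above or below those in the other, the groups are said not to overlap. Since RNA of whole cultures was measured, fewer cells carrying a transcript and less of it per cell cannot be told apart.

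With JQ1, 3 of the 25 channel genes were higher (HCN2, CNGA4, PIEZO1) and 1 was lower (CNGA3). That is 16% of them beside 17.6% of all genes (8.18% higher and 9.47% lower). With panobinostat 4 were higher (ANO5, HCN2, ANO10, KCNIP2) and 2 were lower (PIEZO1, ANO6), or 24% beside 29.3% of all genes (14.5% higher and 14.8% lower). With the combination 6 were higher (HCN2, CNGA1, ANO10, ANO5, HCN3, CNGA4) and 6 were lower (ANO6, ASIC4, ANO4, CNGA2, PIEZO1, ANO9), or 48% beside 37.7% of all genes (18.2% higher and 19.5% lower). The shares with each single compound were thus near the background of the arrays. HCN2 was the one channel gene called higher in all 3 comparisons.

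The channel genes' median log2 change was -0.01 with JQ1, 0.04 with panobinostat and -0.13 with the combination, beside 0.01, 0.03 and 0.02 over all genes. Their median absolute change with the combination was 0.27, beside 0.20 over all genes. Arrays did not overlap with vehicle for 8 of 25 genes with JQ1, 8 with panobinostat and 15 with the combination, beside 33.5%, 39.8% and 46.1% of all genes. Most of the set was dim: 10 genes (HCN2, HCN3, HCN4, ANO5, ANO6, ANO8, ANO10, PIEZO1, PIEZO2, KCNIP2) reached the 40th percentile of mean signal and 15 did not. Of the brighter 10, 6 were called with the combination, beside 53.9% of all genes that bright, and of the dimmer 15 also 6, beside 13.4%. With JQ1 the calls were 2 of the brighter 10 and 2 of the dimmer 15, beside 25.6% and 5.76%. With panobinostat they were 6 of the brighter 10 and 0 of the dimmer 15, beside 41.7% and 10.8%; among those 15, 2 had an unadjusted p under 0.05.

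The counts moved with single arrays, and why they did was not tested. The count lower with JQ1 was 0 without vehicle array 2, vehicle array 3, JQ1 array 1 or JQ1 array 3, and 2 without combination array 1. The count higher with panobinostat was 2 without vehicle array 2 or panobinostat array 3, and the count lower was 1 without panobinostat array 1. The count higher with the combination was 3 without combination array 2, and the count lower was 2 without vehicle array 3 and 3 without combination array 3. With each array centred on its median, the split was 2 higher and 3 lower with panobinostat and 4 higher and 7 lower with the combination. After quantile normalization it was 3 higher and 2 lower with JQ1. Over all genes centring gave 1441 higher and 2310 lower with panobinostat (2161 and 2202 without it). With the combination it gave 2184 and 2920 (2713 and 2901 without it). Quantile normalization gave 1482 and 1522 of all genes with JQ1 (1218 and 1409 without it).

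**Figure D1:**
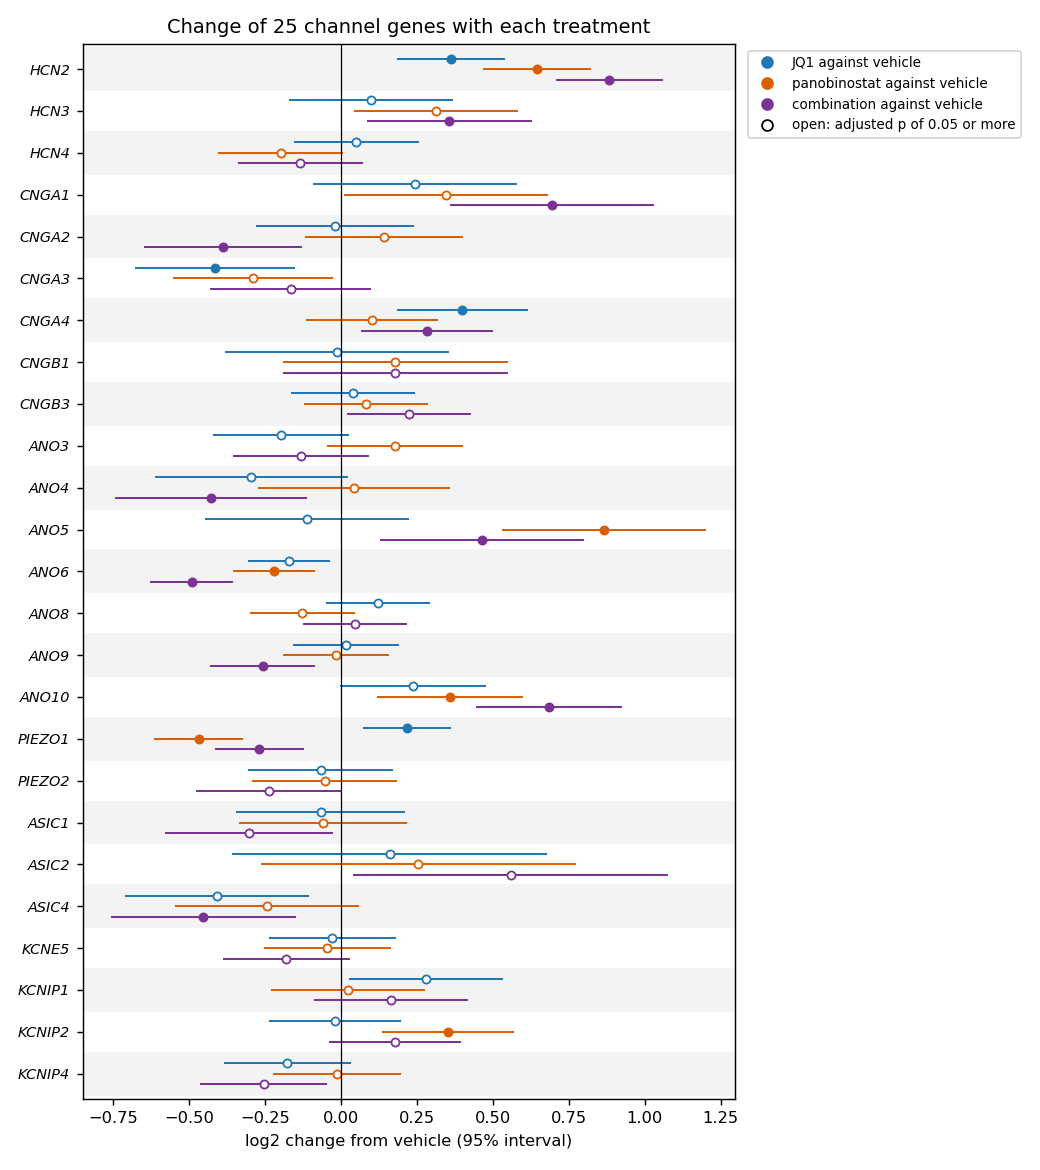
Log2 change from vehicle (x axis, with 95% intervals) of the 25 channel genes (y axis, ordered by family) with JQ1, panobinostat and the combination, n = 3 arrays per group; filled points passed an adjusted p under 0.05 in limma. HCN2 lies to the right of 0 with all 3 treatments (0.36, 0.65 and 0.88), and PIEZO1 lies to the right with JQ1 (0.22) and to the left with panobinostat (-0.47).

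HCN2, a pacemaker channel subunit abundant in brain, rose with every treatment. Its log2 signal on arrays 1, 2 and 3 was 8.16, 8.01 and 7.95 with vehicle, 8.42, 8.52 and 8.26 with JQ1, 8.67, 8.67 and 8.72 with panobinostat, and 8.89, 8.96 and 8.92 with the combination. The 4 groups did not overlap, and vehicle held the 3 lowest arrays and the combination the 3 highest. The change was 0.36 ± 0.08 with JQ1 (1.29-fold, adjusted p = 0.008 by limma), 0.65 ± 0.08 with panobinostat (1.56-fold, adjusted p = 0.000106) and 0.88 ± 0.08 with the combination (1.85-fold, adjusted p = 3.91e-06). These 3 calls held under all 21 alternatives, as did the rise of 0.52 ± 0.08 from JQ1 to the combination (limma adjusted p = 0.00056). From panobinostat to the combination the difference was 0.24 ± 0.08 (limma adjusted p = 0.0687), which was not called although the arrays did not overlap.

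HCN3, a subunit little affected by cyclic AMP, had 9.29, 8.90 and 8.98 with vehicle, 9.18, 9.20 and 9.09 with JQ1, 9.35, 9.42 and 9.34 with panobinostat, and 9.22, 9.67 and 9.35 with the combination. Vehicle array 1 was high in its group and overlapped with the combination. The combination value was 0.36 ± 0.12 (1.28-fold, limma adjusted p = 0.0368), and with panobinostat it was 0.31 ± 0.12 (limma adjusted p = 0.0772), not called. The call with the combination was lost without vehicle array 2 (0.276) or 3 (0.321), combination array 2 (0.228) or 3 (0.389), or JQ1 array 1 (0.357), after median centring (0.321), and, with the value kept, with the replicate block, in a fit of only the arrays compared and after adjustment over all clusters. HCN4, the main subunit of the cardiac sinoatrial node, had 7.85 to 8.02 with vehicle, 7.89 to 8.12 with JQ1, 7.64 to 7.87 with panobinostat and 7.66 to 7.90 with the combination. Its arrays overlapped with vehicle in all 3 treatments and it was not called in any comparison; its change with the combination was -0.13 ± 0.09 (95% interval -0.34 to 0.07, limma adjusted p = 0.304).

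The 250 bases before the transcription start of the HCN genes are shown. HCN2 was called with every treatment, HCN3 with the combination only and HCN4 with none, and these responses were not tested against each other. Sequences are from RefSeq (build GRCh38.p14), 5′ to 3′ on the gene's strand, and capitals mark GGGCGG (the core of a GC box, bound by SP factors) on either strand. HCN2 lies at chr19:589631-589880 (plus strand), HCN3 at chr1:155277213-155277462 (plus strand) and HCN4 at chr15:73368959-73369208 (minus strand).
HCN2: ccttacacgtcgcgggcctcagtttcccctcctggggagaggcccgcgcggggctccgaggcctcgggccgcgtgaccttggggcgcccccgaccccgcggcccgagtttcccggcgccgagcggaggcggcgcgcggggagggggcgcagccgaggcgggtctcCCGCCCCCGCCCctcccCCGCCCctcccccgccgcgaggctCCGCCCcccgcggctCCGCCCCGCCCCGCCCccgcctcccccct
HCN3: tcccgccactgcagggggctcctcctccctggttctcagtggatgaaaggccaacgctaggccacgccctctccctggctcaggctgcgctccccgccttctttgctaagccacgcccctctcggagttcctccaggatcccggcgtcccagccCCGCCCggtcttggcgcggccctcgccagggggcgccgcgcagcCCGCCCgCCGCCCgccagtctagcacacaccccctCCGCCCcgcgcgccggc
HCN4: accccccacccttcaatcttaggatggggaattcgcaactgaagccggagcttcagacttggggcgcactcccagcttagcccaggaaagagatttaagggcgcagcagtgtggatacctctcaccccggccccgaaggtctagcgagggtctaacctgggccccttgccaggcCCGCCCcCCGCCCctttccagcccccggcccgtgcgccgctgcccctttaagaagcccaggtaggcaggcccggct
The HCN2 stretch holds 7 GC boxes and 39 CpG and is 84% G or C, that of HCN3 holds 4 GC boxes and 26 CpG at 74.4%, and that of HCN4 holds 2 GC boxes and 14 CpG at 65.2%. These letters are a description of the sequence, and binding was not measured.

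Among the CNG genes, whose products carry the light and odour responses of sensory neurons, all 6 lay under the 40th percentile of mean signal. CNGA1, the rod photoreceptor subunit, had the largest rise, from a very dim level. Its arrays read 3.59, 3.37 and 3.08 with vehicle, 3.46, 3.72 and 3.59 with JQ1, 3.77, 3.80 and 3.51 with panobinostat, and 3.84, 3.94 and 4.33 with the combination. The combination arrays were the 3 highest of all 12, and the single treatments overlapped with vehicle. The change with the combination was 0.70 ± 0.15 (1.62-fold, limma adjusted p = 0.00301) and held under every alternative that gave it a value. Its mean lay at the 2.43 percentile of all genes, and signal over background is unknown on these arrays. Against JQ1 the combination was higher by 0.45 ± 0.15 (limma adjusted p = 0.0485), a call lost without any array of JQ1 (0.385, 0.514 and 0.451 without arrays 1, 2 and 3), without combination array 2 (0.498) or 3 (0.303), without vehicle array 2 or panobinostat array 1 or 2 (0.45 each), after median centring (0.407), and with the replicate block, trended and robust moderation or adjustment over all clusters.

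CNGA4, a modulatory subunit of the olfactory channel, rose with JQ1. Its arrays read 5.68, 5.96 and 5.97 with vehicle, 6.27, 6.29 and 6.26 with JQ1, 6.13, 5.80 and 5.99 with panobinostat, and 6.20, 6.09 and 6.17 with the combination. All 3 JQ1 arrays lay above every other array of the gene. The change was 0.40 ± 0.10 with JQ1 (1.32-fold, limma adjusted p = 0.0142), held under every alternative that gave it a value, 0.10 ± 0.10 with panobinostat (limma adjusted p = 0.489) and 0.28 ± 0.10 with the combination (1.22-fold, limma adjusted p = 0.0385). The combination call was lost without vehicle array 1 (0.187), any combination array (0.259, 0.314 and 0.276 without arrays 1, 2 and 3) or any JQ1 array (0.283 each), without the pair of arrays with the most distant medians (0.187), and, at 0.283, with the replicate block, only the arrays compared, trended and robust moderation or adjustment over all clusters.

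CNGA2, the main olfactory subunit, was called lower with the combination and with neither single compound. Its arrays read 5.68, 5.54 and 5.73 with vehicle, 5.51, 5.52 and 5.86 with JQ1, 5.97, 5.82 and 5.59 with panobinostat, and 5.18, 5.36 and 5.24 with the combination. The 3 combination arrays were the lowest of the 12. The combination differed by -0.39 ± 0.12 from vehicle (limma adjusted p = 0.02) and by -0.37 ± 0.12 from JQ1 (limma adjusted p = 0.0374). From panobinostat it differed by -0.53 ± 0.12 (1.45-fold, limma adjusted p = 0.0106), a call that held under every alternative that gave it a value. The call against vehicle was lost without vehicle array 1 (-0.375) or 3 (-0.347), without combination array 1 (-0.349) or 3 (-0.378) and after adjustment over all clusters. The call against JQ1 was lost without JQ1 array 3 (-0.257), combination array 1 (-0.329) or 3 (-0.359) or panobinostat array 2 (-0.37), and at that value with the replicate block, trended and robust moderation or adjustment over all clusters.

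CNGA3, the cone photoreceptor subunit, was lower with JQ1. Its arrays read 6.07, 6.46 and 6.43 with vehicle, 5.97, 5.87 and 5.88 with JQ1, 6.05, 6.11 and 5.94 with panobinostat, and 6.36, 6.16 and 5.95 with the combination. Vehicle array 1 was low in its group but still above the JQ1 arrays, and the other treatments overlapped with vehicle. The change with JQ1 was -0.41 ± 0.12 (1.33-fold, limma adjusted p = 0.0326), a call lost without vehicle array 2 (-0.346) or 3 (-0.358), without JQ1 array 1 (-0.444), 2 (-0.396) or 3 (-0.402), and, with the value kept, with the replicate block, only the arrays compared or adjustment over all clusters. The modulatory subunits CNGB1 and CNGB3 were not called in any comparison. With the combination CNGB1 differed from vehicle by 0.18 ± 0.17 (95% interval -0.19 to 0.55) and CNGB3 by 0.23 ± 0.09 (0.02 to 0.43, limma adjusted p = 0.0755).

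Of the 7 anoctamin genes, 2 were higher with the combination (ANO5, ANO10), 3 were lower (ANO4, ANO6, ANO9) and 2 were not called (ANO3, ANO8). Of all genes 18.2% were higher and 19.5% lower with it. ANO10, whose mutation causes a cerebellar ataxia, rose most. Its arrays read 7.27, 7.16 and 7.12 with vehicle, 7.54, 7.54 and 7.18 with JQ1, 7.38, 7.60 and 7.65 with panobinostat, and 7.83, 7.96 and 7.81 with the combination. The combination arrays were the 3 highest, and JQ1 array 3 fell within the range of vehicle. The change was 0.69 ± 0.11 with the combination (1.61-fold, limma adjusted p = 0.000302) and 0.45 ± 0.11 from JQ1 to the combination (1.36-fold, limma adjusted p = 0.00953), and both calls held under all 21 alternatives. With JQ1 it was 0.24 ± 0.11 (limma adjusted p = 0.171), not called, and with panobinostat 0.36 ± 0.11 (1.28-fold, limma adjusted p = 0.0257). The panobinostat call was lost without vehicle array 2 (0.345) or 3 (0.329), without panobinostat array 2 (0.332) or 3 (0.306), after median centring (0.306) and after adjustment over all clusters (0.359).

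ANO5, an anoctamin of intracellular membranes whose mutation causes limb-girdle muscular dystrophy, had the largest rise with panobinostat. Its arrays read 9.17, 8.68 and 8.83 with vehicle, 9.01, 8.67 and 8.66 with JQ1, 9.53, 9.85 and 9.90 with panobinostat, and 9.18, 9.36 and 9.53 with the combination. The panobinostat arrays lay above all vehicle and JQ1 arrays, and the combination arrays reached from just above vehicle array 1 to the lowest panobinostat array. The change was 0.87 ± 0.15 with panobinostat (1.82-fold, limma adjusted p = 0.00111, held under all 21 alternatives), -0.11 ± 0.15 with JQ1 (limma adjusted p = 0.705) and 0.46 ± 0.15 with the combination (1.38-fold, limma adjusted p = 0.0305). From panobinostat to the combination the value was -0.40 ± 0.15 (limma adjusted p = 0.105), not called. The combination call was lost without vehicle array 2 (0.357) or 3 (0.434), without combination array 2 (0.46) or 3 (0.377), after median centring (0.428), and at 0.464 with the replicate block or adjustment over all clusters. Against JQ1 the combination was higher by 0.58 ± 0.15 (limma adjusted p = 0.0157), a call lost without JQ1 array 2 (0.519) or 3 (0.515) or combination array 3 (0.489).

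The promoters of these 2 risen anoctamins are shown beside each other. That of ANO10 lies at chr3:43622012-43622261 (minus strand, the first of 2 starts listed) and that of ANO5 at chr11:22192356-22192605 (plus strand), with GGGCGG on either strand in capitals.
ANO10: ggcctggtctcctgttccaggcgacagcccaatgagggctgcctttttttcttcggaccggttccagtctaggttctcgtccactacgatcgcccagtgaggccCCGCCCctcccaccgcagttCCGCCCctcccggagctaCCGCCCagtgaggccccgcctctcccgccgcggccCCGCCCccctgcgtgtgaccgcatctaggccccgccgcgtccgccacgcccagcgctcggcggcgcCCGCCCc
ANO5: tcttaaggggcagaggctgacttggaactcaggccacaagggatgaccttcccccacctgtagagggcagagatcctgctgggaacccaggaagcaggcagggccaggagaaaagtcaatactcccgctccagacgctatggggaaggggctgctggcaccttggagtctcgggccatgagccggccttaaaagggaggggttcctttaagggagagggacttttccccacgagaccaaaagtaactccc
The ANO10 stretch holds 5 GC boxes and 28 CpG at 72.8% G or C, and the ANO5 stretch holds 0 GC boxes and 5 CpG at 58.4%. The stretch before the other ANO10 start holds 1 GC box and 10 CpG at 50.4%, so whether ANO10 is richer or poorer in G and C than ANO5 depends on the start. Which start the ANO10 cluster reads is not given.

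ANO6, a calcium-activated scramblase and ion channel that exposes phosphatidylserine, read at the 99.3 percentile of mean signal and fell. Its arrays read 12.06, 12.08 and 12.06 with vehicle, 11.95, 11.83 and 11.91 with JQ1, 11.80, 11.86 and 11.88 with panobinostat, and 11.53, 11.57 and 11.62 with the combination. Every treated array lay below every vehicle array, and the combination arrays below all others. The change was -0.17 ± 0.06 with JQ1 (limma adjusted p = 0.0764, not called), -0.22 ± 0.06 with panobinostat (limma adjusted p = 0.0161) and -0.49 ± 0.06 with the combination (1.41-fold, limma adjusted p = 4.48e-05). From JQ1 to the combination it fell by 0.32 ± 0.06 (limma adjusted p = 0.00217), and this call and that against vehicle held under all 21 alternatives. From panobinostat to the combination it fell by 0.27 ± 0.06 (limma adjusted p = 0.0114), a call lost after median centring (-0.254), and at -0.271 in a fit of only the arrays compared or after adjustment over all clusters. The panobinostat call was lost without panobinostat array 1 (-0.199) or the pair of arrays with the most distant medians (-0.204), and at -0.221 with only the arrays compared or adjustment over all clusters.

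ANO4, a neuronally expressed anoctamin, had scattered arrays. Its arrays read 6.38, 6.50 and 6.62 with vehicle, 6.15, 6.03 and 6.44 with JQ1, 6.38, 6.70 and 6.55 with panobinostat, and 6.29, 5.79 and 6.14 with the combination. Combination array 2 was the lowest of the 12. The combination differed by -0.43 ± 0.14 from vehicle (limma adjusted p = 0.0341) and by -0.47 ± 0.14 from panobinostat (limma adjusted p = 0.0479). The call against vehicle was lost without vehicle array 2 (-0.424) or 3 (-0.368), without combination array 2 (-0.282) or 3 (-0.461) and after adjustment over all clusters. The call against panobinostat was lost without combination array 2 (-0.326) or 3 (-0.505), panobinostat array 2 (-0.391) or 3 (-0.465), any vehicle array or JQ1 array 1 or 2 (-0.47 each), after median centring (-0.453), and at -0.47 with the replicate block, only the arrays compared or adjustment over all clusters.

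ANO9 had close arrays and was called lower with the combination and with neither single compound. It read 6.49, 6.62 and 6.61 with vehicle, 6.63, 6.56 and 6.59 with JQ1, 6.66, 6.61 and 6.41 with panobinostat, and 6.29, 6.38 and 6.28 with the combination. The combination arrays were the 3 lowest. The combination differed by -0.26 ± 0.08 from vehicle (1.2-fold, limma adjusted p = 0.0204) and by -0.27 ± 0.08 from JQ1 (limma adjusted p = 0.022). The call against vehicle was lost without vehicle array 2 (-0.233) or 3 (-0.24) or combination array 1 (-0.245) or 3 (-0.238), and that against JQ1 without JQ1 array 1 (-0.255) or 3 (-0.277) or combination array 1 (-0.262) or 3 (-0.256). Both were also lost with trended and robust moderation and after adjustment over all clusters. ANO3, a gene of inherited dystonia, differed from vehicle by -0.13 ± 0.10 with the combination (95% interval -0.35 to 0.09), and ANO8, a tether between the endoplasmic reticulum and the plasma membrane, by 0.05 ± 0.08 (-0.12 to 0.22); neither was called against vehicle with any treatment.

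PIEZO1, the mechanically gated cation channel of red cells and endothelium, moved in opposite directions with the 2 compounds. Its arrays read 8.18, 8.17 and 8.22 with vehicle, 8.44, 8.38 and 8.42 with JQ1, 7.82, 7.64 and 7.72 with panobinostat, and 7.92, 7.88 and 7.98 with the combination. The 4 groups did not overlap, with JQ1 highest, then vehicle, the combination and panobinostat. The change was 0.22 ± 0.06 with JQ1 (1.16-fold, limma adjusted p = 0.037), -0.47 ± 0.06 with panobinostat (1.38-fold, limma adjusted p = 0.000231) and -0.27 ± 0.06 with the combination (1.2-fold, limma adjusted p = 0.00581). From JQ1 to the combination it fell by 0.49 ± 0.06 (limma adjusted p = 0.000224), and from panobinostat to the combination the value was 0.20 ± 0.06 (limma adjusted p = 0.061), not called. The calls with panobinostat, with the combination and from JQ1 to the combination held under all 21 alternatives. The JQ1 call did not: it was lost without any vehicle array (0.214, 0.209 and 0.233 without arrays 1, 2 and 3), any JQ1 array (0.206, 0.235 and 0.215) or panobinostat array 3 (0.219), after median centring (0.225), without the pair of arrays with the most distant medians (0.214), and at 0.219 with the replicate block, only the arrays compared or adjustment over all clusters.

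The PIEZO1 promoter is shown as that of the only member called in opposite directions with JQ1 and panobinostat. It lies at chr16:88785221-88785470 (minus strand), with GGGCGG on either strand and TATAAA in capitals.
PIEZO1: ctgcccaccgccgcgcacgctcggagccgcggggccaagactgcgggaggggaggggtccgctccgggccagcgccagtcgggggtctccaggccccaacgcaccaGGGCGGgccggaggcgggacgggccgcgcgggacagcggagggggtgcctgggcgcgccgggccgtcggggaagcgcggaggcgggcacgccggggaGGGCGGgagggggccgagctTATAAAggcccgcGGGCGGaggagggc
It holds 3 GC boxes, 36 CpG and 81.2% G or C, with TATAAA starting 27 bases before the transcription start. PIEZO2, the channel of touch and proprioception, had 7.18 to 7.49 with vehicle and 7.07 to 7.20 with the combination, which overlapped. Its change was -0.07 ± 0.11 with JQ1, -0.05 ± 0.11 with panobinostat and -0.24 ± 0.11 with the combination (95% interval -0.47 to -0.00, limma adjusted p = 0.11), and it was not called in any comparison.

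**Figure D2:**
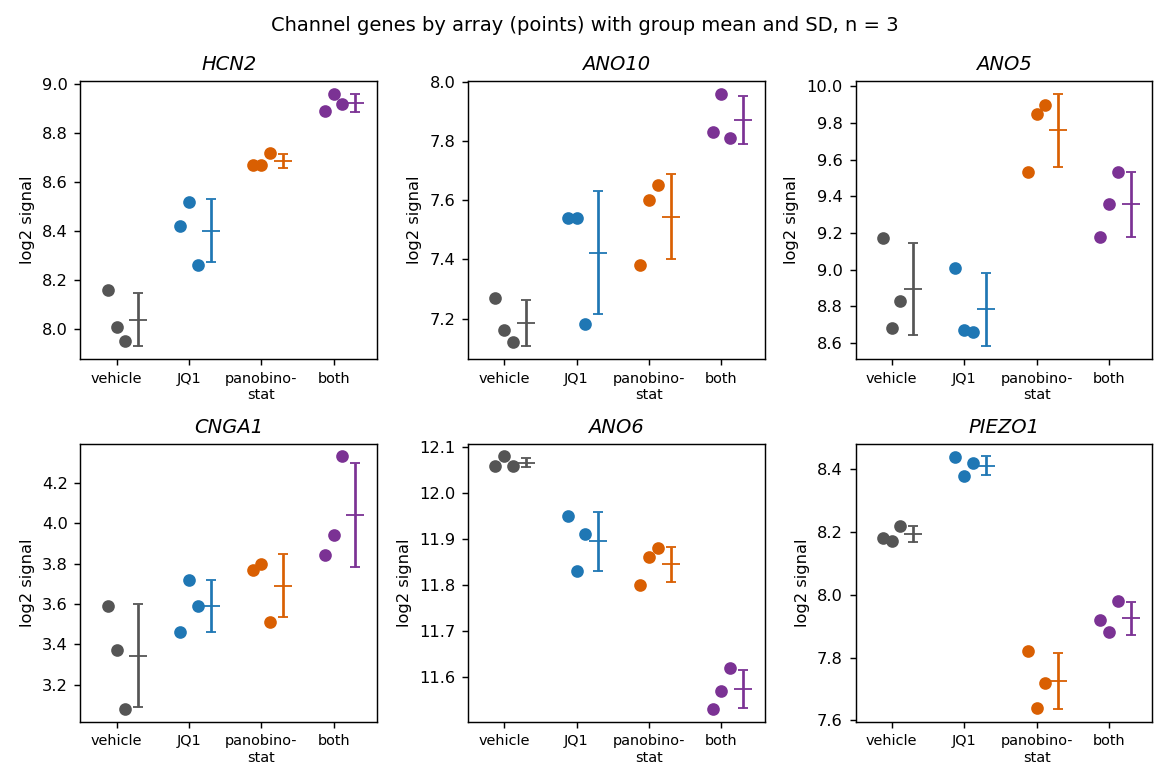
Log2 signal (y axis) of HCN2, ANO10, ANO5, CNGA1, ANO6 and PIEZO1 on each of the 12 arrays (points) in the 4 groups (x axis), with the group mean and SD (bar, n = 3) beside the points; the y axes differ between panels and do not start at 0. The combination arrays are the highest for HCN2, ANO10 and CNGA1 and the lowest for ANO6, the panobinostat mean is the highest for ANO5, and PIEZO1 is highest with JQ1 and lowest with panobinostat.

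Among the acid-sensing channels, ASIC4, which forms no proton-gated current by itself, was lower with the combination. Its arrays read 6.31, 6.37 and 6.52 with vehicle, 5.96, 6.26 and 5.77 with JQ1, 6.08, 6.31 and 6.09 with panobinostat, and 6.19, 5.77 and 5.89 with the combination. JQ1 and combination arrays lay below vehicle, and panobinostat array 2 reached the lowest vehicle array. The change was -0.45 ± 0.14 with the combination (1.37-fold, limma adjusted p = 0.0205) and -0.41 ± 0.14 with JQ1 (limma adjusted p = 0.0616), not called. The combination call was lost without vehicle array 3 (-0.391), without combination array 2 (-0.363) or 3 (-0.42) and after adjustment over all clusters (-0.452). ASIC1, the main neuronal proton sensor, had 6.43 to 6.82 with vehicle and 6.11 to 6.52 with the combination, a difference of -0.30 ± 0.13 (95% interval -0.58 to -0.03, limma adjusted p = 0.0814). ASIC2 had the widest spread of the channel genes, 5.28 to 5.99 with vehicle, 5.30 to 6.31 with JQ1, 5.70 to 6.12 with panobinostat and 6.02 to 6.30 with the combination. Its combination arrays lay above vehicle, but the difference of 0.56 ± 0.24 (95% interval 0.04 to 1.07, limma adjusted p = 0.0857) was not called.

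Of the 4 auxiliary potassium channel genes, KCNIP2 was higher with panobinostat and 0 were called with JQ1 or the combination. With JQ1 and with the combination, 1 each had an unadjusted p under 0.05 in limma. Of all genes 17.6% were called with JQ1, 29.3% with panobinostat and 37.7% with the combination. KCNIP2 encodes a calcium-binding subunit of Kv4 channels. Its arrays read 6.84, 6.74 and 6.84 with vehicle, 6.87, 6.55 and 6.94 with JQ1, 7.14, 7.09 and 7.25 with panobinostat, and 6.96, 7.06 and 6.94 with the combination. The panobinostat arrays were the 3 highest, and the combination arrays also lay above vehicle. The change was 0.35 ± 0.10 with panobinostat (1.28-fold, limma adjusted p = 0.0168) and 0.18 ± 0.10 with the combination (limma adjusted p = 0.187). A second KCNIP2 cluster differed by -0.01 with panobinostat (limma adjusted p = 0.975 over all clusters), and over the mean of both clusters the value was 0.172 and was not called. The call was also lost without vehicle array 2 (0.32) or panobinostat array 3 (0.308), without the pair of arrays with the most distant medians (0.381), after median centring (0.3) and after adjustment over all clusters (0.353).

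The other auxiliary genes were dim. KCNIP1 had 5.34 to 5.67 with vehicle and 5.71 to 5.81 with JQ1, which did not overlap, and its difference of 0.28 ± 0.11 was not called (limma adjusted p = 0.123). KCNIP4 had 5.79 to 6.10 with vehicle and 5.64 to 5.70 with the combination, also without overlap, and its difference of -0.25 ± 0.09 just missed the threshold (limma adjusted p = 0.0529). KCNE5, a modulator of KCNQ1, differed by -0.18 ± 0.09 with the combination (95% interval -0.39 to 0.03, limma adjusted p = 0.167).

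RefSeq listed promoters for 21 of the 25 channel genes, 32 in all, since 8 genes had more than 1 start. GGGCGG stood in 18 of the 32 stretches of 250 bases (56.2%), beside 53.7% of 22199 protein-coding promoters of the same length. TATAAA stood in 5 (15.6%, beside 9%), CCAAT in 12 (37.5%, beside 32.7%), TGACTCA (AP-1) in 1 (3.12%, beside 3.45%), and TGACGTCA (cyclic AMP response element) and CACGTG (E-box) in 0, beside 2.01% and 7.37%. Both strands were searched, and overlapping matches were each counted. The median was 14 CpG and 62.8% G or C in the channel promoters, beside 16 CpG and 62% in all of them. The channel promoters were thus close to the average promoter in these letters.

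The second question the design allows is whether both compounds together differ from each alone. Against JQ1, 4 channel genes were higher with the combination (ANO5, HCN2, CNGA1, ANO10) and 4 were lower (PIEZO1, CNGA2, ANO6, ANO9), or 32% beside 25.6% of all genes (11.7% higher and 13.9% lower). Against panobinostat 0 were higher and 3 were lower (CNGA2, ANO4, ANO6), or 12% beside 14.7% of all genes (6.13% higher and 8.55% lower). At an unadjusted p under 0.05 in limma there were 12 of 25 in either direction. The share of all genes at that threshold was not counted for this comparison, so the 12 cannot be set against a background. Of the calls against JQ1, those of HCN2, ANO10, PIEZO1 and ANO6 held under all 21 alternatives. Against panobinostat that of CNGA2 held under every alternative that gave it a value (limma adjusted p up to 0.0494). The count higher than JQ1 was 2 without JQ1 array 3 or combination array 3, and the count lower was 2 without JQ1 array 3, combination array 1 or combination array 3. The count higher than panobinostat was 1 without JQ1 array 3, panobinostat array 1 or panobinostat array 3. After quantile normalization 2 were higher and 6 lower than with panobinostat, beside 1140 and 1612 of all genes. With array centring 0 were higher and 1 lower, beside 645 and 833. Without either setting the all-gene counts against panobinostat were 912 and 1272. Against JQ1 the centred split was 3 higher and 4 lower, beside 1222 and 2079 of all genes (1744 and 2072 without centring).

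The interaction asks whether the change with both compounds differs from the sum of their single changes. It was called for 0 of 25 channel genes in limma, beside 0.759% of all genes (0.309% higher and 0.45% lower), and was 0 under every alternative run. At an unadjusted p under 0.05 there were 3 of 25, beside 13.7% of all genes. These were CNGA3 (0.54 ± 0.17, limma adjusted p = 0.172), CNGA2 (-0.51 ± 0.17, adjusted p = 0.188) and ANO9 (-0.26 ± 0.11, adjusted p = 0.322), and all of them were dim. The combination calls of HCN2, ANO10, ANO6 and PIEZO1 against vehicle held under all 21 alternatives, though ANO10 and ANO6 were not called with JQ1. Their 95% intervals for the interaction were -0.37 to 0.12 for HCN2 around -0.12 and -0.25 to 0.42 for ANO10 around 0.09. For ANO6 the interval was -0.29 to 0.09 around -0.10, and for PIEZO1 -0.22 to 0.18 around -0.02. For ANO5 the interaction was -0.29 ± 0.22 with an interval of -0.76 to 0.18. Departures from a sum that lie within those intervals could not be told from 0 with 3 arrays per group.

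**Figure D3:**
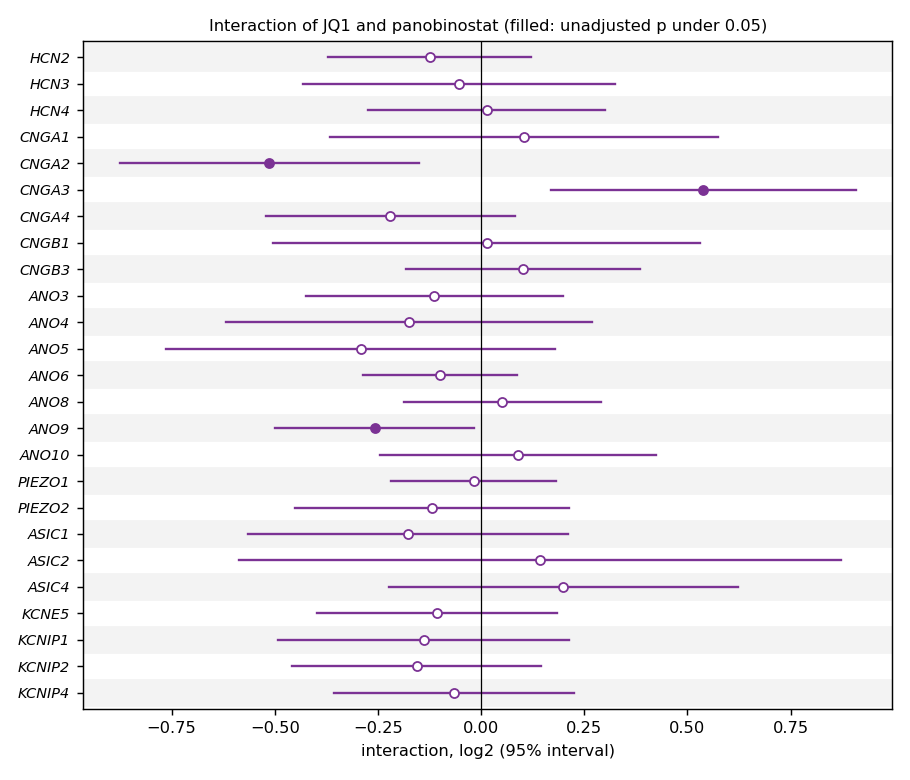
Interaction of JQ1 and panobinostat on the log2 scale (x axis, with 95% intervals) for the 25 channel genes (y axis, by family), where 0 means that the combination equals the sum of the single changes; filled points had an unadjusted p under 0.05 in limma. Only CNGA2 (-0.51), CNGA3 (0.54) and ANO9 (-0.26) are filled, and the intervals of HCN2, ANO10, ANO5, ANO6 and PIEZO1 all include 0.

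The 2 compounds were also compared directly, a contrast added after the data had been seen. Panobinostat gave higher values than JQ1 for 4 channel genes (ANO5, ANO3, KCNIP2, HCN2) and lower values for 3 (PIEZO1, CNGA4, ANO8), or 28% beside 23.3% of all genes (11.6% higher and 11.6% lower). PIEZO1 differed most firmly, by -0.69 ± 0.06 (1.61-fold, limma adjusted p = 3.5e-05), and ANO5 by the largest amount, 0.98 ± 0.15 (1.97-fold, limma adjusted p = 0.000774). Both of these held under all 21 alternatives, with 0 overlap of their arrays. HCN2 was higher by 0.28 ± 0.08 (limma adjusted p = 0.0233), a call lost without JQ1 array 1 (0.295) or 3 (0.215), panobinostat array 2 (0.292) or 3 (0.267), after median centring (0.224), and at 0.283 with only the arrays compared or adjustment over all clusters. ANO3 (0.37), KCNIP2 (0.37), CNGA4 (-0.30) and ANO8 (-0.25) also lost their calls under some alternatives. By array, ANO3 lost it without JQ1 array 1 (0.305) or 2 (0.352) or panobinostat array 1 (0.322), and KCNIP2 without JQ1 array 2 (0.253) or panobinostat array 3 (0.327). ANO8 lost it without JQ1 array 1 (-0.246) or 3 (-0.21), panobinostat array 1 (-0.212) or 2 (-0.205) or combination array 2 (-0.249), and CNGA4 without vehicle array 2 or 3 or any combination array (-0.297 each), any JQ1 array (-0.3, -0.289 and -0.303) or panobinostat array 2 (-0.212) or 3 (-0.306). The count higher was 2 without JQ1 array 1, JQ1 array 2 or panobinostat array 3, and the count lower was 1 without JQ1 array 1, JQ1 array 3, panobinostat array 2 or combination array 2. With centred arrays 2 were higher and 5 lower, beside 1088 and 1847 of all genes (1732 and 1729 without centring).

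Other channels and genes that work with channels, called partner genes here, were read from a list of 88, of which 47 were measured. These were 9 of calcium stores and entry, 19 channels outside the symbol pattern, and 19 channel anchors, modulators and regulators. The sodium pump and chloride cotransport genes of the list were not analysed here. With JQ1 4 of 47 were higher and 7 lower (23.4%), with panobinostat 10 and 9 (40.4%), and with the combination 12 and 14 (55.3%), against the same backgrounds of 17.6%, 29.3% and 37.7%. Their median log2 change with the combination was 0.06, beside 0.02 over all genes. The anchors, modulators and regulators were called 4 higher and 10 lower with the combination, the calcium genes 4 higher and 0 lower of 9 (4 of them at an unadjusted p under 0.05 in either direction, limma), and the channels outside the pattern 4 higher and 4 lower. The interaction was called for 0 of 47 in limma, beside 0.759% of all genes. At an unadjusted p under 0.05 there were 9 of 47, beside 13.7% of all genes.

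ORAI1, the pore of store-operated calcium entry, rose by 0.77 ± 0.11 with JQ1, 0.48 ± 0.11 with panobinostat and 1.12 ± 0.11 with the combination (2.18-fold, limma adjusted p = 7.15e-06). Its relative ORAI3 was higher with panobinostat (0.64) and the combination (0.60). STIM1, the calcium sensor of the endoplasmic reticulum that opens ORAI channels, was higher with the same treatments (0.29 and 0.36). MCU, the mitochondrial calcium uniporter, was higher with all 3 (0.52, 0.29 and 0.44). The other relative ORAI2 was lower with JQ1 (-0.311), a call lost without JQ1 array 1 (-0.285) or 2 (-0.256) and under other settings. Its mean was 8.14 with vehicle and 8.14 with the combination. ORAI2, STIM2 and the RYR genes were the 5 of 9 calcium genes not called with the combination. RIMBP2, which ties calcium channels to release sites, had the largest fall with JQ1 and with the combination, and KCNRG with panobinostat. RIMBP2 fell by 1.03 ± 0.11, 0.65 ± 0.11 and 1.49 ± 0.11 with JQ1, panobinostat and the combination (2.81-fold with the combination, limma adjusted p = 9.73e-07). FGF14, a binding partner of voltage-gated sodium channels, fell by 0.72 ± 0.11, 0.40 ± 0.11 and 1.47 ± 0.11 (2.77-fold with the combination, limma adjusted p = 7.06e-07), while its relative FGF11 rose with panobinostat (0.64) and the combination (0.48). UNC80, a subunit of the NALCN sodium leak channel, was lower with panobinostat (-0.50) and the combination (-0.77), as was STAC, a regulator of calcium channels (-0.54 and -0.83), and KCNRG, a regulator of potassium channel assembly (-0.79 and -0.78). KCTD12, an auxiliary subunit of GABA-B receptors, was lower with the combination (-0.72). FGF14 lost its panobinostat call without vehicle array 2 (-0.349) or panobinostat array 1 (-0.318) or 3 (-0.353), and UNC80 without vehicle array 1 (-0.395) or panobinostat array 1 (-0.409). Without the pair of arrays with the most distant medians the panobinostat calls of FGF14 (-0.307), UNC80 (-0.304) and KCNRG (-0.535) were lost, and FGF14 (-0.401) also lost it in a fit of only the arrays compared. ORAI2, ORAI3, STIM1, STIM2, MCU and the RYR genes were named after their values were seen.

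**Figure D4:**
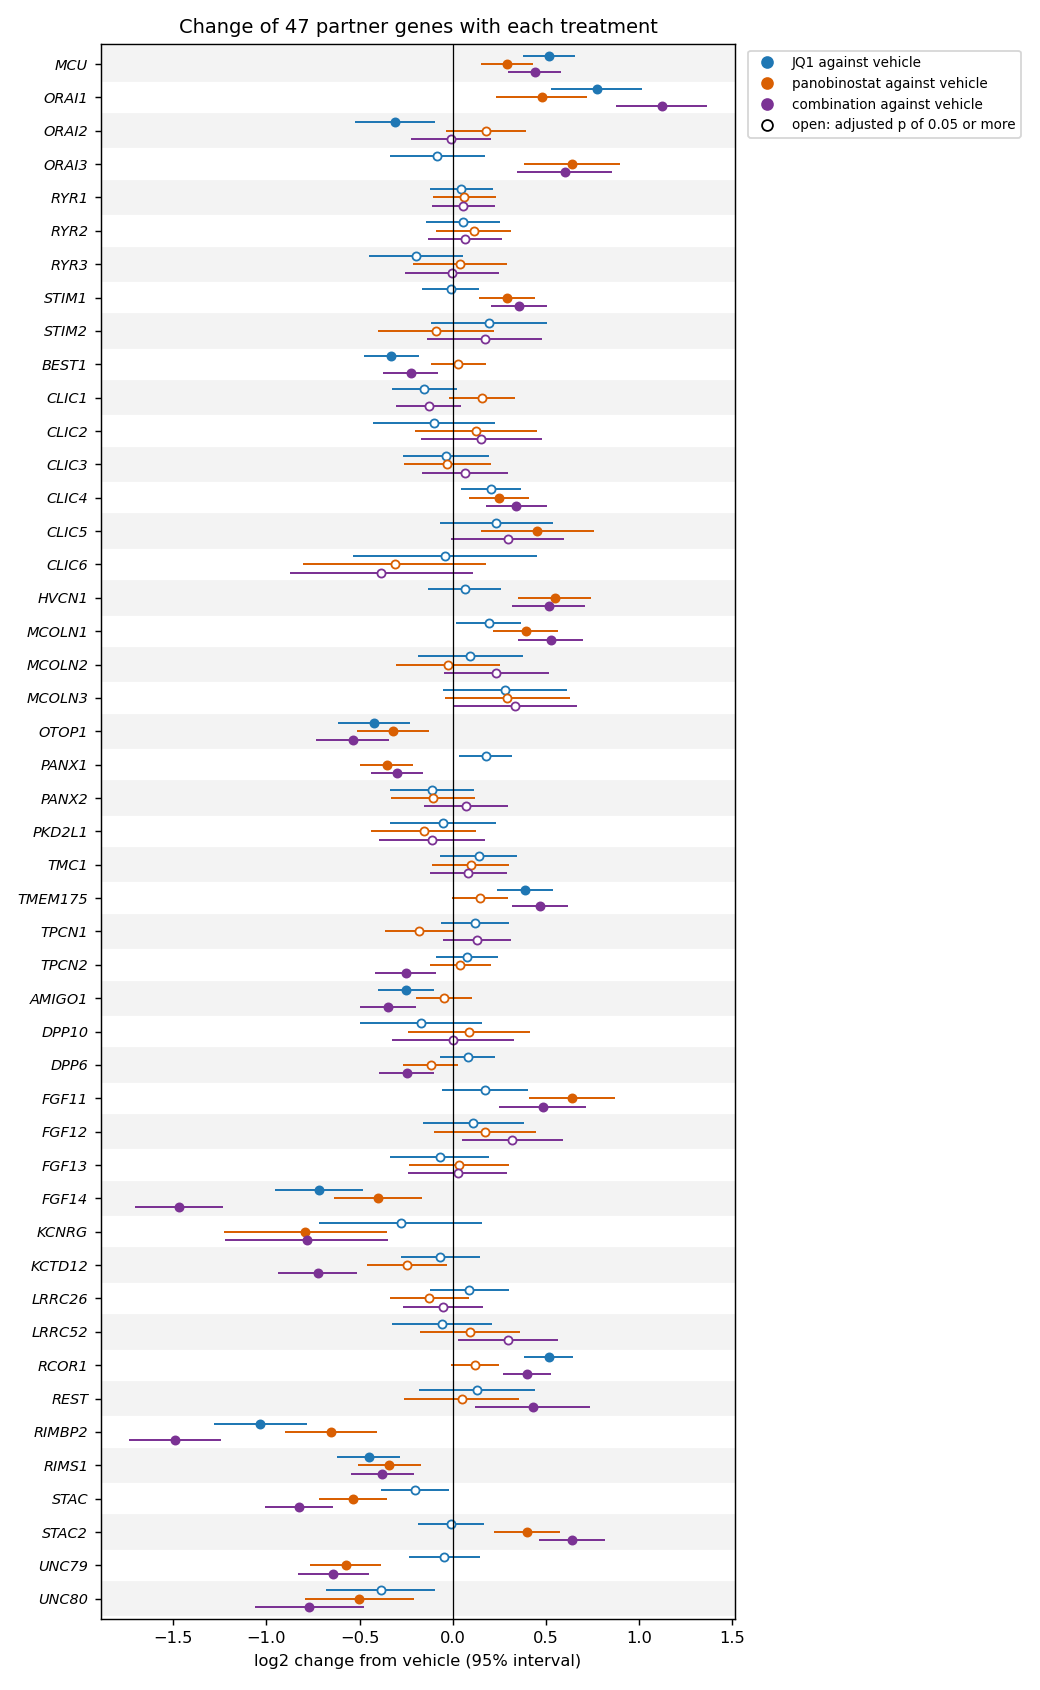
Log2 change from vehicle (x axis, with 95% intervals) of the 47 partner genes (y axis), n = 3 arrays per group. They are grouped as calcium genes, channels outside the pattern, and anchors, modulators and regulators. Filled points passed an adjusted p under 0.05 in limma. ORAI1 lies furthest right (1.12 with the combination), and RIMBP2 (-1.49) and FGF14 (-1.47) lie furthest left.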

How the data were processed

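RNA of SK-N-BE(2) cells had been measured on 12 Affymetrix gene arrays, 3 in each of 4 groups. Values as deposited, for 53617 transcript clusters on each array, are taken here as log2 signal. Per the submitters' processing notes MAS5 and affy were used, without versions or roles, and the background correction, scaling and build were not given in the sources at hand. Values carry no detection call, and precision is set by how many arrays there are. The annotation named 16098 clusters (14884 genes, 779 with more than 1 cluster), and 0 columns were left unused.

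Differences were tested with limma 3.58.1 in R 4.3.3 (lmFit, eBayes, a coefficient for each group and no replicate block, 8 residual degrees of freedom, prior 3.457), two-sided, adjusted by Benjamini-Hochberg over all 14884 genes. Exact permutation was not used, as its smallest two-sided p for groups of 3 is 0.1. As separate cultures are not stated, p-values reflect the spread of these samples alone, which may be technical. The script was tested on simulated data. Deviations of same-numbered arrays from their group means correlated at -0.693 to 0.236 (18 pairs, 4 over 0.1). Both extremes were among arrays numbered 1 (vehicle with panobinostat, and panobinostat with the combination). With 3 arrays per group these values cannot show whether the numbers pair the samples, and the labels name no pairing.

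Members and gene lists were chosen with earlier results of these data known. Named genes were the called members with the 12 largest rises and falls against vehicle, the 5 largest against each single compound, the member of each family with the largest combination change, a list of well-known channels, and the 8 genes of the partner lists with the largest called changes; all members are described. The direct comparison of the compounds and the setting without the 2 arrays whose medians lay furthest out (vehicle 1 and panobinostat 1) were added after seeing the data. Other settings were median centring, quantile normalization, leaving out genes under the 40th percentile, the mean of a symbol's clusters, the replicate block, only the arrays compared, trended and robust moderation, adjustment over all clusters, and leaving out each array in turn.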

Additional observations from a re-analysis of the deposited data

How the results depend on the processing

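No channel gene call reversed. Of 40 calls in 7 comparisons 17 held under every alternative that gave them a value. Of 56 calls of the partner genes against vehicle 44 did, with 0 reversals in either set. Counts of channel genes that moved by over 1.5 times are given by setting. The all-gene counts with median centring and quantile normalization stand beside the comparisons above. With median centring, 2 were higher with panobinostat, 1 was lower in the combination than in panobinostat, and 2 were higher and 5 lower in panobinostat than in JQ1. With quantile normalization, 2 were lower with JQ1, and 2 were higher and 6 lower in the combination than in panobinostat. With dim genes left out, 2 were lower with the combination and 2 lower than in JQ1, and 3 were higher and 1 lower than in panobinostat; this setting tests fewer genes and gives no value for 15 of the 25. In a fit of only the arrays compared, 0 were lower with JQ1, 1 was lower with panobinostat, 1 lower in the combination than in panobinostat, and 2 higher and 1 lower in panobinostat than in JQ1. With trended and robust moderation, 2 were lower with JQ1, 2 lower in the combination than in JQ1 and 1 higher than in panobinostat. Under that moderation 7 partner genes were higher with JQ1. With adjustment over all clusters, which tests more features, 0 were lower with JQ1, 2 were higher and 1 lower with panobinostat, 3 higher and 2 lower with the combination, 2 lower than in JQ1, 1 lower than in panobinostat, and 2 higher and 1 lower in panobinostat than in JQ1. Without the pair of arrays with the most distant medians, 1 was higher in the combination than in panobinostat, and 5 partner genes were lower with panobinostat. Apart from these settings' own construction the cause was not tested.

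The replicate block gave 0 lower with JQ1 and 3 higher with the combination. Whether the array numbers pair the samples is not known.

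Leaving out 1 array at a time gave 2 to 3 channel genes higher and 0 to 2 lower with JQ1, 2 to 6 and 1 to 3 with panobinostat, 3 to 6 and 2 to 7 with the combination, 2 to 4 and 2 to 4 from JQ1 to the combination, 0 to 1 and 2 to 4 from panobinostat to the combination, and 2 to 4 and 1 to 3 from JQ1 to panobinostat. With 3 arrays per group, small changes of dim genes are measured least well.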
